A study of Mus musculus with 8 samples.

Results

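The genes described here are 10 members of the insulin-like growth factor (IGF) and growth hormone (GH) axis, Igf1, Igfals, Igfbp1, Igfbp2, Igfbp3, Igfbp4, Igf1r, Ghr, Socs2 and Cish. Their probes were taken by gene name from the array's own annotation, which gave 20 of the 55681 non-control probes, and the 10 genes were among 23544 gene names tested. The tissue was liver from C57BL/6J pups taken by caesarean at embryonic day E19.5 and killed 4 h later. Of the 8 animals, 4 had inherited from the mother an allele deleted for the miR-379/miR-410 cluster (labelled KO, called knockout here) and 4 were wild-type littermates. Both groups shared the background strain, the caesarean, the warm and moist box and the 4 h after it, and no group of untreated or naturally born pups was among the samples used. The labels name no tissue limit for the deletion, and the RNA came from a fragment of the large liver lobe, so all cell types of the liver contributed.

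IGF-I is a secreted growth factor that the liver releases into blood, where most of it is bound by IGF-binding proteins, and in a ternary complex by Igfbp3 or Igfbp5 protein together with the acid-labile subunit encoded by Igfals. GH binds the receptor encoded by Ghr on hepatocytes and acts through the kinase JAK2 and the transcription factor STAT5, which drives Igf1, Igfals and the feedback inhibitors Socs2 and Cish. In rodents this drive is weak before birth and grows after it, while Igfbp1 and Igfbp2 are prominent products of the late fetal and newborn liver.

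The deleted cluster lies on mouse chromosome 12 and is named for its outer miRNAs, whose RefSeq sequences (build GRCm38.p6, plus strand) are shown to identify what the knockout lacks. Capitals mark the seed, bases 2 to 8 of the mature miRNA. The first lies at chr12:109709065-109709085 and the other at chr12:109743764-109743784.
mmu-miR-379-5p: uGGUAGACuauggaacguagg
mmu-miR-410-3p: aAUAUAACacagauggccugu

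The results turn on the 5 Igf1 probes, so the first 30 of the 60 bases of each are printed from the array files, with mm9 coordinates on chromosome 10, plus strand. Per the array's annotation, A_55_P2085979 belongs to transcript variant 2 of Igf1 and the other probes to variant 1. Capitals mark the printed part of the 40 bases that A_55_P2085984 and A_55_P2031631 share, so these 2 probes are not independent measurements. In map order the probes lie at chr10:87378456-87378515, chr10:87393561-87393620, chr10:87393581-87393640, chr10:87395924-87395983 and chr10:87399581-87399640.
A_55_P2085979: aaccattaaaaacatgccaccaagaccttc
A_55_P2085984: cctaccaaataacaataataAGTCCAATAA
A_55_P2031631: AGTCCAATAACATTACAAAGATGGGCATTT
A_55_P2031636: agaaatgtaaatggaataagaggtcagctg
A_55_P2085974: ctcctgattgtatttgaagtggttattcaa

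Each array held 59305 non-control spots, of which 58.6% to 66.2% were well above background, and none was saturated. Levels below are log2 processed signals relative to the 75th percentile of the same array, called relative log2 levels, and a difference is the knockout mean minus the wild-type mean. As a check of the labels, the 2 probes of Mirg, a host transcript in the cluster, were lower by 2.71 and 2.58 log2 units in knockout (limma adjusted p = 0.000265 each, n = 4 per group). Whether they lie inside the deleted interval is not given in the sources used here, and both were still well above background on all 4 knockout arrays. Each genotype took a whole column of the slide, and an effect of the column cannot be told apart from one of genotype. The sex-linked transcripts were unevenly spread: Xist stood well above background in 3 knockout samples but in no wild-type sample, and Ddx3y in 3 wild-type and 2 knockout samples. Wild-type replicate 3 was above background for neither and knockout replicate 4 for both. Over 23532 genes knockout replicate 4 was close to a weighted mean of the other knockout arrays (weights 0.60, 0.25 and 0.15, residual SD 0.201 log2). For wild-type replicate 4 the weights were 0.56, 0.37 and 0.072 and the residual SD was 0.258. The other arrays had residual SDs of 0.252 to 0.412. Knockout replicate 4 had the lowest value of all and wild-type replicate 4 the lowest of its group. The sex-linked and pancreas acinar genes were left out of this fit. Named after their values were seen, Ddx3y (1.65) and Ctrb1 (4.108) on wild-type replicate 4 lay between wild-type replicates 2 and 3. Replicate 2 read 2.458 and -2.13, and replicate 3 read -7.419 and 5.128. Cela1 (1.688) did not, against 1.74 and 1.919. Whether RNA was shared between these samples was not tested, so the main values are also given for the 6 arrays without replicate 4.

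No member passed the test over all genes. At their brightest kept probes, Igf1 and Igfbp2 had lower levels on every knockout array than on any wild-type array. The groups overlapped at the second Igfbp2 probe and at some other Igf1 probes, given below. For 8 of the 10 members the knockout mean was below the wild-type mean, where 45.3% of all genes tested were, and the median difference of the members was -0.19 log2 units against 0.02 for all genes. At an adjusted p under 0.05 (limma, Benjamini-Hochberg over 23544 genes), 0 of 10 members were called, against a background of 0.204% of genes. At an unadjusted p under 0.05, 3 members (Igf1, Igfbp2 and Igfals, all lower) stood against 13.0% of genes. The groups did not overlap for 2 of 10 members, both lower, against 4.83% of genes that were lower without overlap. With 6 arrays, 0 of 10 members were called, where 0.0212% of genes were called and 1734 genes had an unadjusted p under 0.05.

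**Figure D1:**
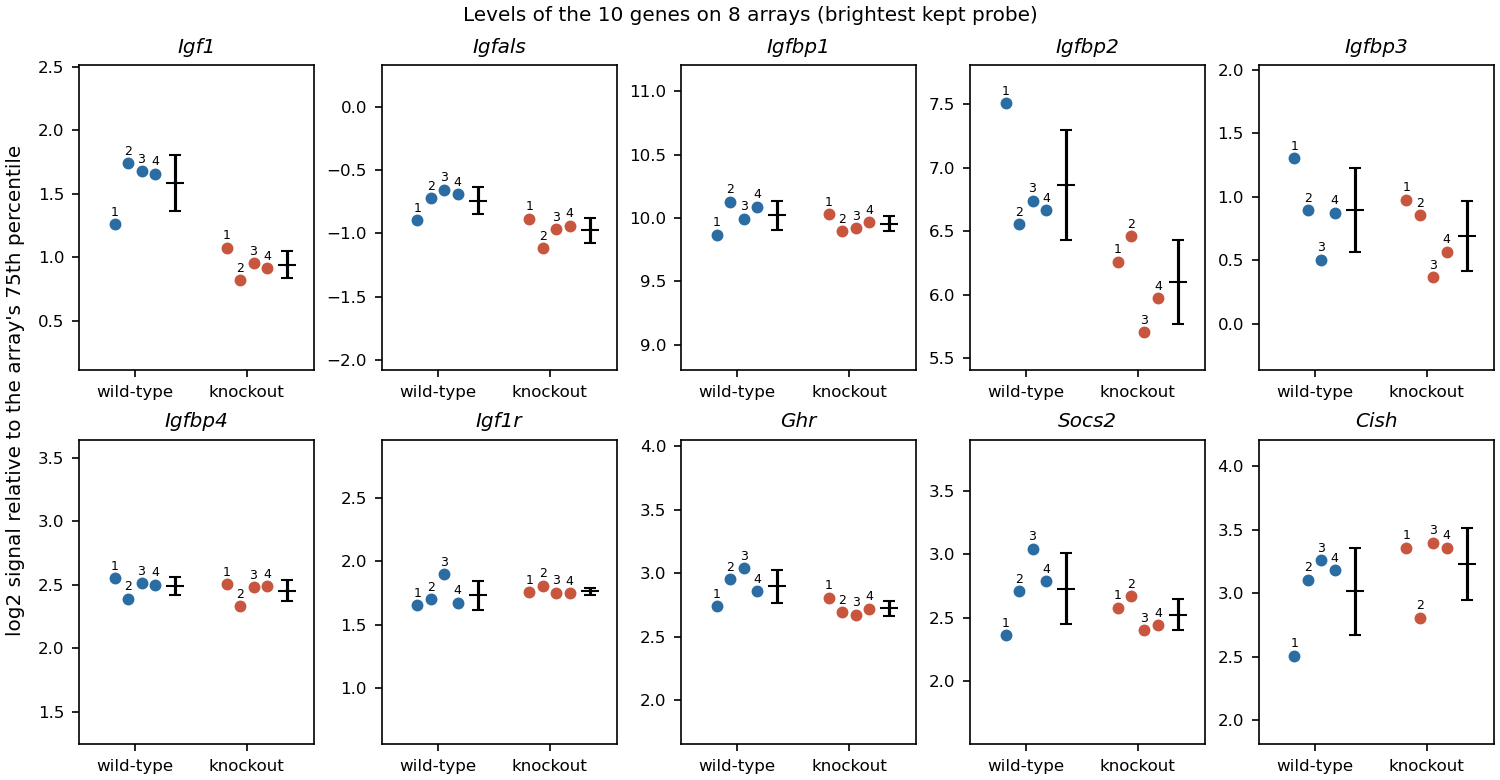
Relative log2 level (log2 processed signal, scaled to the 75th percentile of the array) of the 10 genes at their brightest kept probe, with 4 wild-type and 4 knockout arrays numbered by replicate and bars giving the mean and SD; all panels span the same number of log2 units. The groups are apart for Igf1 and Igfbp2 and overlap for the other genes.

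Of the ligand, Igf1, the probe used for the gene (A_55_P2031631, the brightest of its 5) read 1.26, 1.74, 1.68 and 1.66 on wild-type replicates 1 to 4. The knockout replicates read 1.07, 0.82, 0.95 and 0.91. All 4 knockout arrays lay below all wild-type arrays, and wild-type replicate 1 was the nearest to them. The difference was -0.64 log2 units (SE 0.12, 95% interval -0.91 to -0.38), which put the knockout at 64.0% of wild-type, and it missed the threshold over all genes (limma adjusted p = 0.0798, n = 4 per group). Without wild-type replicate 1 the difference was -0.75 and the gene was called (limma adjusted p = 0.0148). It was not called when any other single array was left out (limma adjusted p 0.108 to 0.247). Nor was it called with Xist as a covariate (difference -0.65, SE 0.205, limma adjusted p = 0.258). Xist largely followed genotype here, so this covariate cannot tell sex and genotype apart. With the replicate number as a block Igf1 was not called either (limma adjusted p = 0.215). Changes of processing that led to a call are listed in the last section. On 6 arrays the difference was -0.61 (limma adjusted p = 0.529).

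The most downstream Igf1 probe, A_55_P2085974, was the 1 of 20 member probes called over all 33754 probes kept, where 0.204% of probes were called and 0.175% were called lower. It read -0.24, -0.25, -0.36 and -0.45 in wild-type and -0.96, -1.09, -1.01 and -1.005 in knockout. The arrays within each group were close together and the groups lay apart. The level fell by 0.69 log2 units in knockout (SE 0.08, 95% interval -0.87 to -0.52), to 61.9% of wild-type (limma adjusted p = 0.0129, n = 4 per group). The call was lost when wild-type replicate 2 (limma adjusted p = 0.0556), wild-type replicate 3 (0.0525), knockout replicate 3 (0.0554) or knockout replicate 4 (0.0646) was left out, at differences of -0.71 to -0.67. It was also lost with Xist as a covariate (limma adjusted p = 0.156), with the replicate number as a block (0.119) and without the filter on dim probes (0.0579). On 6 arrays the difference was -0.74 (limma adjusted p = 0.180), and 0 of 20 member probes were called there, against 0.0326% of probes.

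The probe that overlaps the first one, A_55_P2085984, read 0.77, 1.18, 1.08 and 1.16 in wild-type and 0.57, 0.25, 0.58 and 0.44 in knockout. Again all knockout arrays were lower, with a difference of -0.59 (SE 0.12, limma adjusted p = 0.110, n = 4 per group). The dimmest Igf1 probe, A_55_P2031636, read -2.95, -2.31, -2.28 and -2.48 in wild-type and -3.04, -2.78, -2.99 and -2.81 in knockout. There the groups overlapped through wild-type replicate 1, and the difference was -0.40 (SE 0.15, limma adjusted p = 0.343).

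The variant 2 probe, A_55_P2085979, gave another reading. Its levels were -0.22, 0.07, 0.13 and 0.20 in wild-type and 0.29, 0.14, 0.04 and 0.07 in knockout. The groups overlapped, and the difference was 0.09 log2 units (SE 0.11, 95% interval -0.16 to 0.33, limma adjusted p = 0.752, n = 4 per group). This interval lies above the differences measured at the other 4 Igf1 probes, although it overlaps the interval of A_55_P2031636, -0.75 to -0.05. The 2 spots of the variant 2 probe differed from each other by more than those of the other Igf1 probes on every array except wild-type replicate 2, with an SD of 0.224 to 0.409 log2 units within an array.

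Because these probes share an array, the distance of each variant 1 probe from the variant 2 probe does not depend on the scaling of arrays by a common factor. These contrasts were chosen after the values were seen, the variant 2 probe being the reference because it alone was not lower, so they are a description with no test. A_55_P2031631 stood 1.47, 1.67, 1.55 and 1.46 log2 units above the variant 2 probe on the wild-type arrays and 0.79, 0.68, 0.91 and 0.84 above it on the knockout arrays. The contrast was smaller on every knockout array than on any wild-type array, a change of -0.73, and only its change between groups carries meaning, since probes differ in brightness. The changes were -0.67 at A_55_P2085984, -0.78 at A_55_P2085974 and -0.49 at A_55_P2031636. All 4 contrasts were without overlap between groups, as 3 of the 4 variant 1 probes were on their own. On 6 arrays the changes ran from -0.90 to -0.58.

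**Figure D2:**
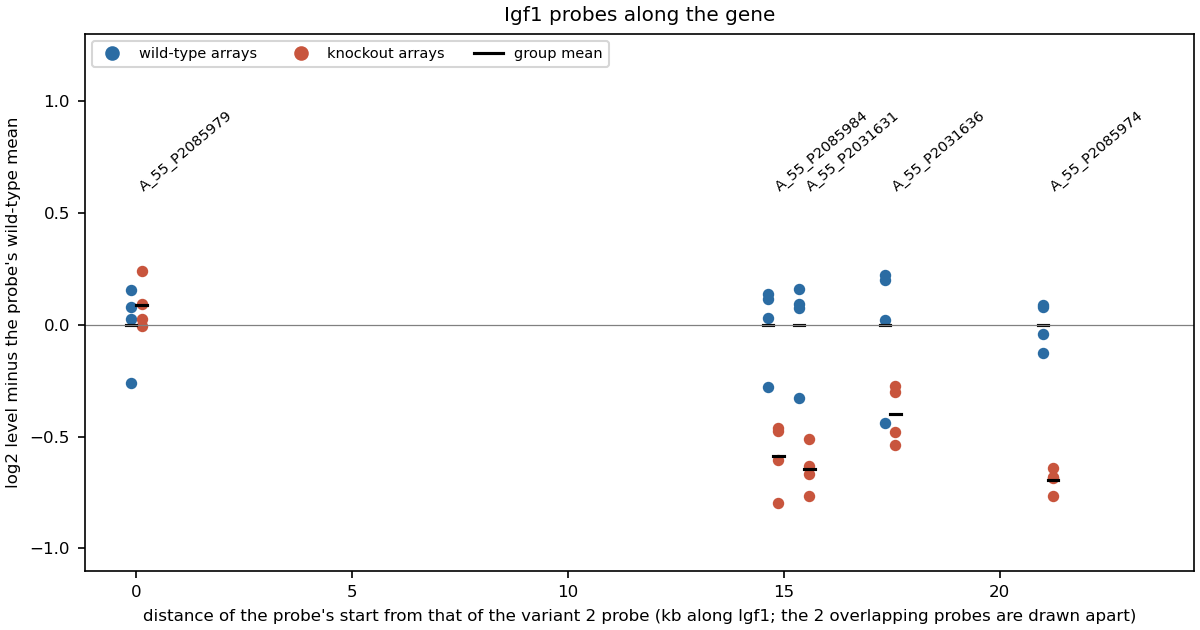
Relative log2 level at the 5 Igf1 probes minus each probe's wild-type mean, plotted against the distance of the probe's start from the start of the variant 2 probe in kilobases; points are the 4 wild-type and 4 knockout arrays and black bars the group means. The knockout arrays lie below wild-type at the 4 probes 15 or more kilobases away, apart from an overlap at A_55_P2031636, and mix with wild-type at 0.

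Igfals, the acid-labile subunit that keeps IGF-I in the ternary complex, read -0.89, -0.72, -0.65 and -0.69 in wild-type and -0.88, -1.11, -0.97 and -0.94 in knockout. Wild-type replicate 1 and knockout replicate 1 were nearly level, and the other arrays of the groups lay apart. The difference was -0.24 (SE 0.08, 95% interval -0.42 to -0.05, 84.9% of wild-type), with an unadjusted limma p of 0.0200 and an adjusted p of 0.280 over all genes.

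Among the binding proteins, Igfbp2, a carrier of both IGFs in fetal blood, read 7.51, 6.56, 6.74 and 6.67 in wild-type and 6.26, 6.46, 5.71 and 5.97 in knockout at A_55_P2056729. All knockout arrays were lower than all wild-type arrays, by a gap between knockout replicate 2 and wild-type replicate 2 that was small beside the spread in either group. The difference was -0.77 log2 units (SE 0.24, 95% interval -1.31 to -0.23, 58.8% of wild-type, limma adjusted p = 0.228, n = 4 per group). The second probe, A_66_P135391, read 7.32, 6.31, 6.51 and 6.40 in wild-type and 6.14, 6.33, 5.68 and 5.83 in knockout. There knockout replicate 2 lay just above wild-type replicate 2, and the difference was -0.64 (SE 0.24, limma adjusted p = 0.334). On both probes wild-type replicate 1 was the highest array and knockout replicate 3 the lowest, and on 6 arrays the differences were -0.79 and -0.66.

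Igfbp1, the binding protein that insulin represses and fasting induces in liver, read 9.87, 10.13, 9.995 and 10.09 in wild-type and 10.03, 9.90, 9.92 and 9.97 in knockout. The arrays of the groups were interleaved, with a difference of -0.07 (SE 0.08, 95% interval -0.24 to 0.11, limma adjusted p = 0.724, n = 4 per group). Igfbp4, which binds IGFs outside the ternary complex, ranged from 2.39 to 2.55 in wild-type and from 2.33 to 2.51 in knockout. Its difference was -0.04 (95% interval -0.20 to 0.13, limma adjusted p = 0.841). For both genes the interval leaves out a fall as large as the one measured at Igf1.

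Igfbp3, the main carrier of IGF-I after birth, read 1.31, 0.89, 0.50 and 0.88 in wild-type and 0.98, 0.86, 0.37 and 0.57 in knockout at A_52_P253179. The groups overlapped widely, wild-type replicate 3 and knockout replicate 3 being the lowest of their groups. The difference was -0.20 (SE 0.19, 95% interval -0.64 to 0.23, limma adjusted p = 0.657), and its lower bound lay next to the difference measured at Igf1. Its second probe, A_55_P1992715, was well above background on 5 of 8 arrays (2 wild-type, 3 knockout), and its difference of -0.09 (SE 0.29) changed sign when wild-type replicate 4 (0.03) or knockout replicate 2 (0.15) was left out.

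Of the receptors, Igf1r, the tyrosine kinase that IGF-I binds, ranged from 1.65 to 1.90 in wild-type and from 1.75 to 1.81 in knockout. The knockout arrays fell inside the wild-type range, and the difference was 0.03 (SE 0.07, 95% interval -0.14 to 0.20, limma adjusted p = 0.867, n = 4 per group). Ghr read 2.74, 2.95, 3.04 and 2.86 in wild-type and 2.81, 2.69, 2.67 and 2.72 in knockout at A_55_P2059412, annotated to transcript variant 2. Only wild-type replicate 1 reached into the knockout range, and the difference was -0.17 (SE 0.08, 95% interval -0.36 to 0.01, limma adjusted p = 0.407). At A_51_P499854, annotated to transcript variant 1, the groups overlapped more, from 2.34 to 2.68 against 2.37 to 2.59, and the difference was -0.11 (SE 0.10, limma adjusted p = 0.656).

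**Figure D3:**
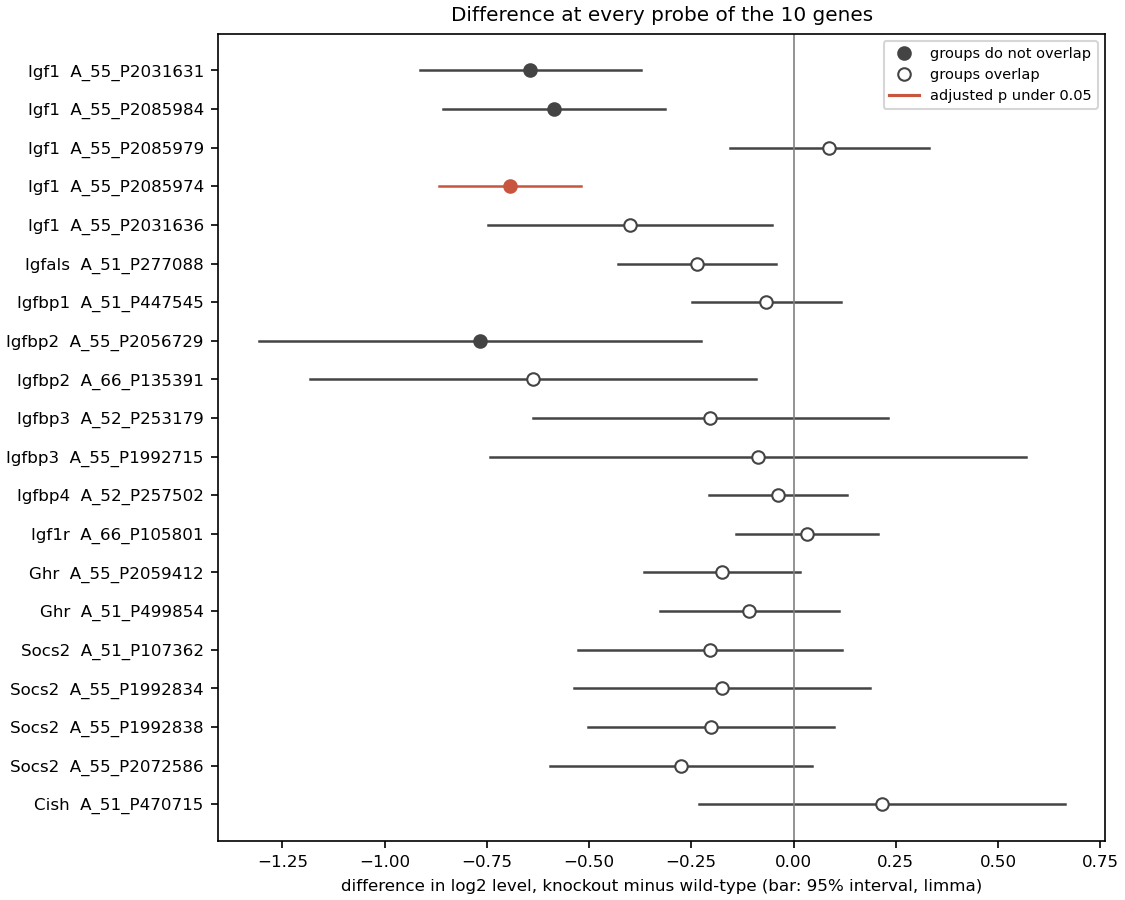
Difference in relative log2 level, knockout minus wild-type, at the 20 probes of the 10 genes, with limma 95% intervals; filled points mark probes whose groups do not overlap and colour marks an adjusted p under 0.05 over all probes kept. The 4 filled points, 3 of Igf1 and 1 of Igfbp2, all lie below 0. So do 17 of all 20 points, where 45.3% of all genes tested had a lower knockout mean.

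Over all 20 probes, 17 had a lower knockout mean, where 45.3% of all genes tested had one. The share of all kept probes was not counted. Without overlap, 4 of the 20 were lower, as were 4.24% of all kept probes. For these 4 (A_55_P2031631, A_55_P2085984, A_55_P2085974 and A_55_P2056729) the two-sided exact permutation p was 0.0286, the smallest that 4 against 4 arrays allow, and 0.143 after Benjamini-Hochberg adjustment over the 20 probes. Any probe without overlap gets this p, so it restates how the 4 were picked and adds no support. With the 6 arrays without replicate 4 the smallest exact permutation p possible is 0.1. Probes of a gene share its RNA, so the 20 are not independent.

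The feedback inhibitors downstream of the GH receptor gave differences of opposite sign, neither past the threshold. Socs2, which targets the activated GH receptor for degradation, was printed in 10 spots as A_51_P107362 and read 2.36, 2.71, 3.04 and 2.79 in wild-type and 2.58, 2.67, 2.40 and 2.44 in knockout. Wild-type replicate 1 was the lowest of all arrays and the other wild-type arrays were the highest, so the groups overlapped. The spots of an array varied by an SD of only 0.0363 to 0.0854 log2 units, and the difference was -0.20 (SE 0.14, 95% interval -0.52 to 0.12, limma adjusted p = 0.549, n = 4 per group). The other Socs2 probes differed by -0.17 (A_55_P1992834), -0.20 (A_55_P1992838) and, for the dim A_55_P2072586, -0.27, each with overlapping groups. Without wild-type replicates 3 and 4 the value at A_55_P1992834 changed sign, to 0.05.

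Cish, a STAT5-induced inhibitor of cytokine receptors, read 2.51, 3.11, 3.26 and 3.18 in wild-type and 3.36, 2.81, 3.40 and 3.36 in knockout. In each group 1 array stood low, wild-type replicate 1 and knockout replicate 2, and the other knockout arrays were above all wild-type arrays. The difference was 0.22 (SE 0.20, 95% interval -0.23 to 0.66, limma adjusted p = 0.646, n = 4 per group).

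STAT5 binds the palindrome TTCNNNGAA, in which N is any base and which reads the same on both strands. The RefSeq promoter table (GRCm38.p6, 250 bases before to 50 after each start) held 13 promoters of 9 members and none for Socs2. Of all 32851 promoters, 8.30% held the motif at least once and 0.457% at least 2 times. Among the members it was found 2 times in the Cish promoter, once in each of 2 of the 3 Igfals promoters and in none of the others. The 30 bases of Cish that hold both matches, at chr9:107296654-107296683 on the plus strand, are shown with the matches in capitals, since Cish was the GH target with the highest motif count. A match is a string of letters, not a measured site.
Cish promoter: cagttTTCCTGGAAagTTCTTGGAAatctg

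Of 19 other IGF system genes listed, 18 could be tested (Igfbp7 had no kept probe). Among them 1 was called lower and 0 higher, where 0.174% of all genes were called lower and 0.0297% higher. The median difference was 0.01. The gene called was Htra1, a secreted serine protease that cleaves IGF-binding proteins and matrix proteins. It read -0.60, -0.68, -0.46 and -0.67 in wild-type and -1.6, -1.47, -2.09 and -1.75 in knockout. The gap between the groups was wider than the spread in either, and the level fell by 1.13 (SE 0.13, limma adjusted p = 0.0195, n = 4 per group). The call was lost without wild-type replicate 2 (limma adjusted p = 0.0662), 3 (0.0637) or 4 (0.0774) or knockout replicate 4 (0.0912), at differences of -1.15 to -1.08. It was also lost with the replicate number as a block (limma adjusted p = 0.119) and without the filter on dim probes (0.0570), and on 6 arrays the difference was -1.14 (limma adjusted p = 0.315).

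Named after their values were seen, Igf2, the fetal IGF ligand, ranged from 3.75 to 3.89 in wild-type and from 3.65 to 4.01 in knockout, a difference of 0.01 (SE 0.09, limma adjusted p = 0.957). Igf2bp1, an RNA-binding protein of fetal tissue, ranged from -0.79 to -0.66 in wild-type and from -0.50 to -0.17 in knockout. It was the 1 gene of the list that was higher without overlap, as 4.10% of all genes were, by 0.37 (SE 0.09, limma adjusted p = 0.161, n = 4 per group).

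All 18 other genes of GH receptor signalling were tested, and 0 were called (limma), with a median difference of -0.05. At an unadjusted p under 0.05 were 2 of the 18, where 13.0% of all genes were, and 1 was lower and 1 higher without overlap, where 4.83% and 4.10% of all genes were. Socs1, another feedback inhibitor of JAK kinases, was lower without overlap (-0.43, SE 0.10, limma adjusted p = 0.124), and the transcription factor Cebpa was higher without overlap (0.35, SE 0.09, limma adjusted p = 0.190). The next smallest p-values were those of Stat3 (-0.16, limma adjusted p = 0.454) and Socs3 (0.37, limma adjusted p = 0.499), whose groups overlapped. Jak2 and Stat5b, which carry the signal from Ghr, differed by 0.09 and 0.12 with overlapping groups, and are named for that role.

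Of 15 genes that respond to GH in adult liver, 12 were tested (Mup3, Serpina12 and Elovl3 had no kept probe), and 0 were called (limma). At an unadjusted p under 0.05, 5 were lower and 0 higher, where 6.94% of all genes were lower at that p, and 4 were lower without overlap (4.83% of all genes), with a median difference of -0.29. Among the 9 of these genes well above background on all 8 arrays, 4 were lower at that p and 3 without overlap, and the median difference was -0.08. Lepr, the leptin receptor, ranged from 1.62 to 2.09 in wild-type and from 1.36 to 1.498 in knockout (difference -0.49, limma adjusted p = 0.124). Slco1a1, an organic anion transporter, ranged from -4.32 to -3.84 in wild-type and from -5.94 to -4.67 in knockout (difference -1.05, limma adjusted p = 0.138), but only 2 of its 4 knockout arrays were well above background, so the size of its difference is uncertain. The differences were -0.24 for Lifr, the leukaemia inhibitory factor receptor (limma adjusted p = 0.216), and -0.43 for Keg1 (0.286), and the fifth gene, Cyp2d9, named after its value was seen, differed by -0.66 with overlapping groups (0.329).

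**Figure D4:**
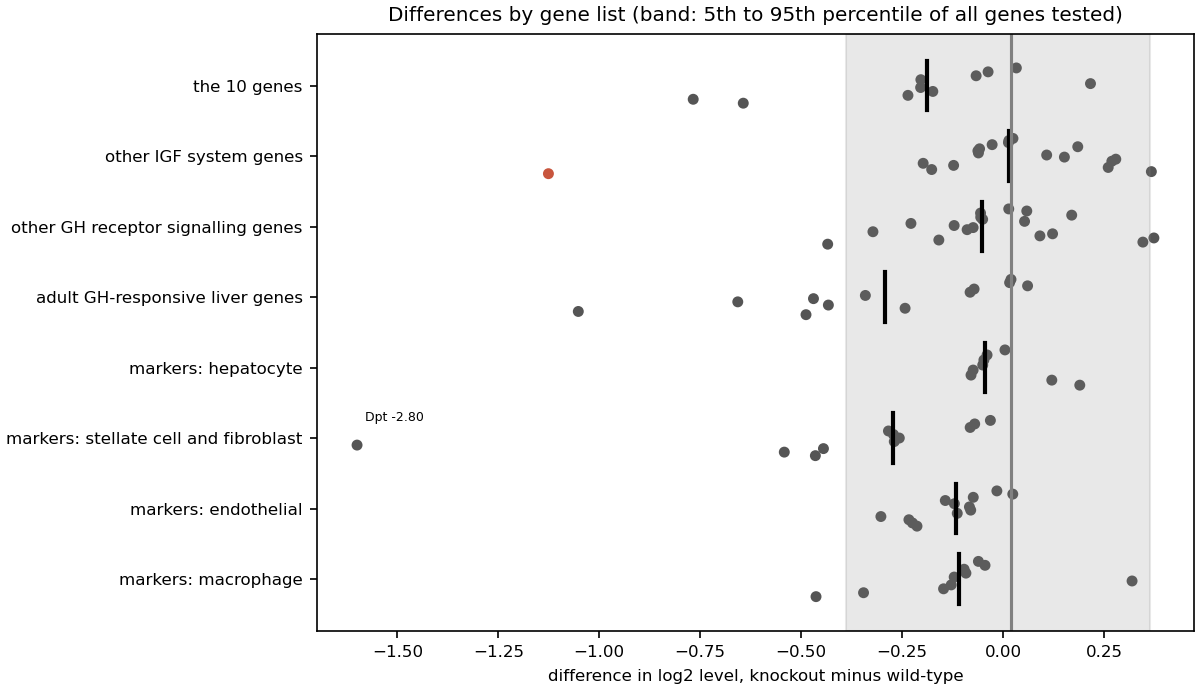
Difference in relative log2 level, knockout minus wild-type, of each tested gene in 8 lists; black bars are list medians, the grey line the median of all genes and the grey band their 5th to 95th percentile (-0.39 to 0.36). The coloured point is Htra1, the 1 gene shown with an adjusted p under 0.05, and Dpt (-2.80, well above background on 2 of 4 knockout arrays, so of uncertain size) is drawn at the axis edge with its value written.

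Markers of liver cell types were read beside these values. The 8 hepatocyte markers tested had a median difference of -0.04, and their summed linear level relative to the 75th percentile ran from 4456 to 5277 in wild-type and from 4757 to 4942 in knockout. All 11 markers of stellate cells and fibroblasts had a lower knockout mean and 8 were lower without overlap, where 45.3% and 4.83% of all genes were. Their median difference was -0.27. The groups overlapped at Reln, Acta2 and Lrat, which differed by only -0.08, -0.07 and -0.03. Among the 10 of these markers well above background on all 8 arrays, which leave out Dpt, 7 were lower without overlap. None was called (limma), their summed level ran from 203.2 to 228.3 in wild-type and from 159.4 to 183.1 in knockout, and none of them was at 0. The medians were -0.12 for endothelial, -0.11 for macrophage and 0.23 for erythroid markers. Genes of neighbouring tissues were also uneven: 7 tested skeletal muscle genes had a median difference of -1.42 (-0.98 over the 4 well above background on all arrays; 1 called lower, summed level 2.207 to 4.563 in wild-type and 1.425 to 1.73 in knockout), and 9 pancreas acinar genes one of -2.60 (none called, 25.84 to 173.9 and 16.88 to 26.12). Wild-type replicates 3 and 4 held the highest levels of 8 of these 9 genes. For Ctrb1, named after its values were seen, they read 5.128 and 4.108, against 0.61 and -2.13 on wild-type replicates 1 and 2 and -2.04 to -1.30 in knockout. The part of these markers in the Igf1, Igfbp2 and Htra1 differences was not tested, and in whole tissue fewer cells of a type and less RNA per cell cannot be told apart.

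The genes whose levels were most like those of 4 members over the 8 arrays are given by Pearson's r, as a description, since arrays share their scaling and many genes reach such values. For Igf1 they were 2310058N22Rik (0.98), the unnamed probe A_55_P2041457 (0.976) and Pinx1 (0.969), with 115 genes above 0.9. For Igfbp1 they were Npr3 (0.979), AI429812 (0.971) and a noncoding transcript probe on chromosome 3 (0.961), with 42 genes above 0.9. For Ghr they were Sdhb (0.992), Gsta3 (0.98) and Magi3 (0.969), with 60 above 0.9, and for Socs2 they were Dok3 (0.988), Hadha (0.983) and Chrm3 (0.971), with 94 above 0.9.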

How the data were processed

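Total RNA of 8 livers was labelled with Cy3 and hybridised to 1-colour Agilent arrays, 4 per genotype, on 1 slide. The authors deposited spot intensity values, for which the submitters' processing notes name Agilent Feature Extraction 10.10, with probe positions on mm9 per the file headers. They also deposited a value table in log2 units, which tracked each array's own median signal on the log2 scale (r from 0.99995 to 0.999994, medians 8.845 to 8.861, genes not centred) and which was used as an alternative.

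Control and outlier-flagged spots were dropped. Processed signals were taken to log2 and averaged over the spots of a probe. Each array was then scaled to the 75th percentile of its probe averages. Probes well above background on 4 or more arrays, and with an unflagged spot on every array, were kept (all 20 member probes). A gene was its brightest kept probe, under the file's own gene name. Groups were compared with limma 3.58.1 (R 4.3.3; lmFit, eBayes) and Benjamini-Hochberg adjustment over all genes or probes at 0.05, and single values with exact permutation over 70 assignments. The fit was tested on simulated data. The number of arrays limits the precision. Alternatives were other background corrections, scalings and filters, sex transcripts as covariates, a replicate block and left-out arrays.

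The members and lists were chosen with earlier results of these data known. All members and probes are named, and of each list every gene called or else up to 4 with the smallest p. The replicate number is not stated to mark a litter. Deviations from the group mean correlated at -0.115, -0.0284, -0.0122 and 0.0691 between samples of equal number, and at -0.11 to 0.146 between the others. These values cannot exclude that samples of equal number shared a litter, so the replicate block was run as an alternative.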

Additional observations from a re-analysis of the deposited data

Results flagged for a closer look

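In 68 groups of 4 arrays checked among the genes named, 4 held an array whose gap to the nearest other array exceeded Dixon's critical share of the group's range, where chance gives about 1 in 20. In 3 of them it was knockout replicate 2. It read 2.331 for Igfbp4 against 2.485 to 2.508 on the other knockout arrays, 1.808 for Igf1r against 1.748 to 1.757, and 2.808 for Cish against 3.357 to 3.398. The distance was small in log2 units for Igfbp4 and Igf1r and larger for Cish. In the fourth, wild-type replicate 1 read 4.242 for Cyp2d9 against 3.289 to 3.422 on the other wild-type arrays.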

How the results depend on the processing

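Over 23 alternatives, Igf1 stayed lower in knockout in all (-0.75 to -0.45, limma adjusted p 0.0148 to 0.529). It made the members called 1 instead of 0 with normexp, with normexp and quantile scaling, with median signals, with a trended and robust eBayes, and without wild-type replicate 1 (range 0 to 1 over left-out replicates). Probe A_55_P2085974 was lower in all 23 and called in 13, and Htra1 lower in all 23 and called in 14. For Igf1, this probe and Htra1 the groups did not overlap, so leaving out arrays could not change the sign. The changes of filter, the robust eBayes and the replicate block leave these differences unchanged by construction, so there only the call could move. The member probes called, 1 in the report, were 3 with normexp, 2 with normexp and quantile scaling, with median signals and with the robust eBayes, 0 without the filter on dim probes, with Xist as covariate and with the replicate block, and 0 without replicate 4 of both groups or without replicates 3 and 4 of either (0 to 2 over left-out replicates). The other IGF system genes called, 1 in the report, were 0 without the filter, with the block and in the same sets of 6 arrays (0 to 1 over left-out replicates). Of the adult GH-responsive genes 1 was called with normexp. Over all genes, the 48 called became 80 with quantile scaling, 132 with normexp, 149 with normexp and quantile, 127 with median signals, 140 with the deposited value table, 20 without the filter, 85 with the filter on all arrays, 156 with the robust eBayes, 91 with Ddx3y and 14 with Xist as covariate, 21 with the replicate block, 5 without replicate 4 of both groups, 13 without wild-type and 12 without knockout replicates 3 and 4, and 14 to 97 over left-out replicates. Differences that changed sign were Igfbp3 (0.022 without knockout replicates 3 and 4), Igfbp4 (0.0085 with Xist, 0.0039 without knockout replicate 2; -0.070 to 0.0039 over left-out replicates), the variant 2 Igf1 probe (-0.051 with Xist), the second Igfbp3 probe (0.03 without wild-type replicate 4, 0.15 without knockout replicate 2, 0.0055 without replicate 4 of both groups; -0.33 to 0.15 over left-out replicates) and Socs2 probe A_55_P1992834 (0.051 without wild-type replicates 3 and 4). The cause was not tested. The 4 within-array Igf1 contrasts, chosen after the values were seen, kept their direction in all 18 settings run. Among these the changes of filter leave the contrasts unchanged by construction. Leaving out arrays could not reverse a contrast either, since the groups did not overlap. Only the changes of background correction, scaling or signal values could have changed a direction. The contrasts were not run with the covariates, the block, the mean of probes or the robust eBayes. Probes near background, such as the second Igfbp3 probe, limit what can be read from them.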
